A study of Homo sapiens with 6 samples.

Results

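The small nucleolar RNA (snoRNA) host genes are a group of noncoding genes whose introns carry snoRNAs, and their levels and transcript forms were followed in K562 cells after knockdown of PCBP1. Members were taken by name from GENCODE release 44: the 28 genes named SNHG followed by a number, plus GAS5, ZFAS1, EPB41L4A-AS1, DANCR and TAF1D. These are 33 genes of 62252 with transcripts in the quantification tables, and 32 of the 33 are annotated as long noncoding RNA (lncRNA) while TAF1D is protein coding. K562 is an erythroleukemia line. Cells were transduced with lentivirus that delivered the pLKO.1 vector with a short hairpin RNA against PCBP1 (shPCBP1, 3 libraries) or against luciferase (shCtrl, 3 libraries). Virus was added with polybrene at 8 µg/mL, and cells of both groups were selected with puromycin at 3 µg/mL for 4 days, so the groups differ in the hairpin. Poly-A RNA was sequenced with paired ends. The labels number the libraries 1 to 3 without saying that they came from separate cultures, so p-values measure the spread between these libraries, which may be technical.

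PCBP1 is a poly C-binding protein that regulates splicing, translation and RNA stability and also carries iron. A snoRNA host gene is transcribed and spliced like other genes, and its snoRNAs are trimmed out of the removed introns, where the flanking exons mostly serve as a carrier. Box C/D snoRNAs guide ribose methylation of ribosomal RNA, and box H/ACA snoRNAs guide conversion of uridine to pseudouridine. The spliced exons hold short open reading frames with early stop codons, and many of these RNAs are degraded by nonsense-mediated decay (NMD), the translation-dependent pathway that the helicase UPF1 drives. Host promoters often start transcription at a run of pyrimidines, C or T, that gives the RNA a terminal oligopyrimidine start. Transcript models that keep an intron are annotated for many of these genes.

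By the snoRNA genes within them, 12 members hosted box C/D snoRNAs, 12 hosted box H/ACA snoRNAs, 4 hosted both kinds (GAS5, TAF1D, SNHG12 and SNHG25), and 5 had no snoRNA with a family name. Without SNHG14, whose 84 GENCODE snoRNAs lie mostly outside the introns of its leading transcript, 59 of 64 GENCODE snoRNAs and 67 of 72 RefSeq snoRNAs lay inside an intron of the most abundant multi-exon transcript of their host. SNHG1, for example, held 9 RefSeq snoRNAs and TAF1D held 8, all within introns of the leading transcript. GENCODE placed no snoRNA gene in GAS5, while RefSeq placed 11.

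The start of transcription was read from RefSeq promoter sequences on GRCh38 as a window of 30 bases, 10 before the annotated start site and 20 from it on. Windows are printed because the start is the sequence that many of these hosts are known for, and because C and T are the bases that poly C-binding proteins and pyrimidine-tract factors read. Capitals mark the longest run of C or T in each window. The first 5 belong to some of the members that passed the gene-level test below, and the last 4 to some of the abundant members that did not.
SNHG5, chr6:85678714-85678743, minus strand: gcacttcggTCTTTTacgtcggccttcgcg
SNHG29, chr17:16438977-16439006, plus strand: CCTTTTgtgaggattgggatattccgactc
SNHG32, chr6:31834906-31834935, plus strand: cattttagTTCTTTTTgcgaagtgggctcg
SNHG16, chr17:76557754-76557783, plus strand: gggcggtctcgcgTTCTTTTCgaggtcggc
SNHG12, chr1:28581854-28581883, minus strand: gcttcagcgCCCTTTCTCCCCgccgcattc
SNHG1, chr11:62855866-62855895, minus strand: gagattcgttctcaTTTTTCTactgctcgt
SNHG8, chr4:118278752-118278781, plus strand: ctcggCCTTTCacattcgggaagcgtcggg
ZFAS1, chr20:49278632-49278661, plus strand: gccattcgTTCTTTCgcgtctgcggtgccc
SNHG4, chr5:139274091-139274120, plus strand: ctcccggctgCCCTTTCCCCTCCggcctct

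Among the printed windows, the run began within 2 bases of the annotated start in SNHG5, SNHG32, ZFAS1, SNHG12 and SNHG4. Not printed are DANCR, TAF1D and SNHG27, which passed, and the abundant GAS5 and SNHG3, which did not. Their longest runs had 6 bases in DANCR, 12 in TAF1D, 3 in SNHG27, 4 in GAS5 and 6 in SNHG3. Counted from the start site, these began at base 15 in DANCR, −1 in TAF1D, 18 in SNHG27, 12 in GAS5 and 3 in SNHG3. The GAS5 window, chr1:173869026-173869055, lies upstream of the GENCODE gene, which begins at 173868882 on the minus strand. The SNHG3 window also lies upstream of its GENCODE gene. For these 2 genes the run may not describe the start of the gene whose counts are given. A sequence was found for 29 of the 33 members, and SNHG6, SNHG9, SNHG15 and SNHG25 had no entry. A C or T run of at least 8 bases on the transcribed strand was present in 7 of the 29 members (24.1%) and in 12.7% of all promoters in the table. The longest run had a median of 6 bases in the members and 4 bases over all promoters. Of the 8 members with a window that passed the gene-level test, 4 had such a run (SNHG12, SNHG16, SNHG32 and TAF1D). A run in this window is a description of the annotated start, and these genes can also start elsewhere.

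Depth, as total estimated counts, ran from 83033656 to 140522444 in shCtrl and from 67066747 to 85121124 in shPCBP1. PCBP1 itself stood at 18.1% of its shCtrl level (log2 fold change −2.47), with 37799 to 40566 normalized counts in shCtrl and 6625 to 7277 in shPCBP1. The erythroid markers GATA1, TAL1, KLF1 and HBG1 were present in all 6 libraries, GATA1 for example at 203 to 217 TPM, a level per unit of transcript length scaled to a fixed library total. TAL1 (log2 fold change 0.19 ± 0.04, SE, DESeq2 adjusted p = 2.00e-05) and HBG1 (0.16 ± 0.05, SE, DESeq2 adjusted p = 0.00356) rose, while GATA1 and KLF1 did not pass, and their part in the members' values was not tested. In bulk RNA, fewer cells of a type and less RNA per cell cannot be told apart.

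The members together took 0.277% to 0.284% of the estimated counts of a library, with the groups overlapping. Their TPM summed to between 5051 and 5133 in shCtrl and between 5219 and 5328 in shPCBP1, without overlap. The mean of SNHG5 alone went from 1108 to 1328 TPM, while that of SNHG29 went from 593 to 509 TPM. The separate sums therefore do not show a rise of the members together, and no background for them was counted. SNHG5 was the most abundant at a mean of 1218 TPM over the 6 libraries, followed by GAS5 at 610 and SNHG29 at 551 TPM, whose ranges over libraries overlapped. SNHG6 (429 TPM) and SNHG32 (319 TPM) came next. DANCR (247 TPM), SNHG1 (232 TPM), SNHG8 (231 TPM), ZFAS1 (218 TPM) and SNHG3 (207 TPM) lay close together, and their ranges over libraries overlapped from each gene to the next. TAF1D (151 TPM) and SNHG4 (146 TPM) completed the 12 highest. At the other end, SNHG18 and SNHG28 averaged 0.0128 and 0.0187 TPM.

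Between shPCBP1 and shCtrl, individual host genes differed in both directions and mostly by small amounts. SNHG5, SNHG16, SNHG32, DANCR, SNHG6, SNHG12 and SNHG25 rose, while SNHG29, TAF1D and SNHG27 fell. Of the 12 most abundant hosts, 6 did not pass the test: GAS5, SNHG1, SNHG8, ZFAS1, SNHG3 and SNHG4. In the DESeq2 Wald test on summed estimated counts, 29 members received an adjusted p, and 10 of them (34.5%) were below 0.05, against 31.2% of all 17095 genes tested. The 7 rises compare with a background of 17.7% of genes rising, and the 3 falls with 13.5% falling. Among members averaging 1000 normalized counts or more, 8 of 23 passed, where 44.9% of all such genes did. The share of members called was near that of all genes tested, and at 1000 counts or more it was below that of such genes. The median log2 fold change of the 29 was 0.01, and over all genes tested it was 0.00187. None of the members passed the study's further threshold of an absolute log2 fold change over 1, which 1.37% of all genes did. In 27 of the 29 the absolute log2 fold change was under 0.3. The 2 groups of libraries did not overlap in normalized count for 8 of the 29, against 44.2% of all genes.

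**Figure D1:**
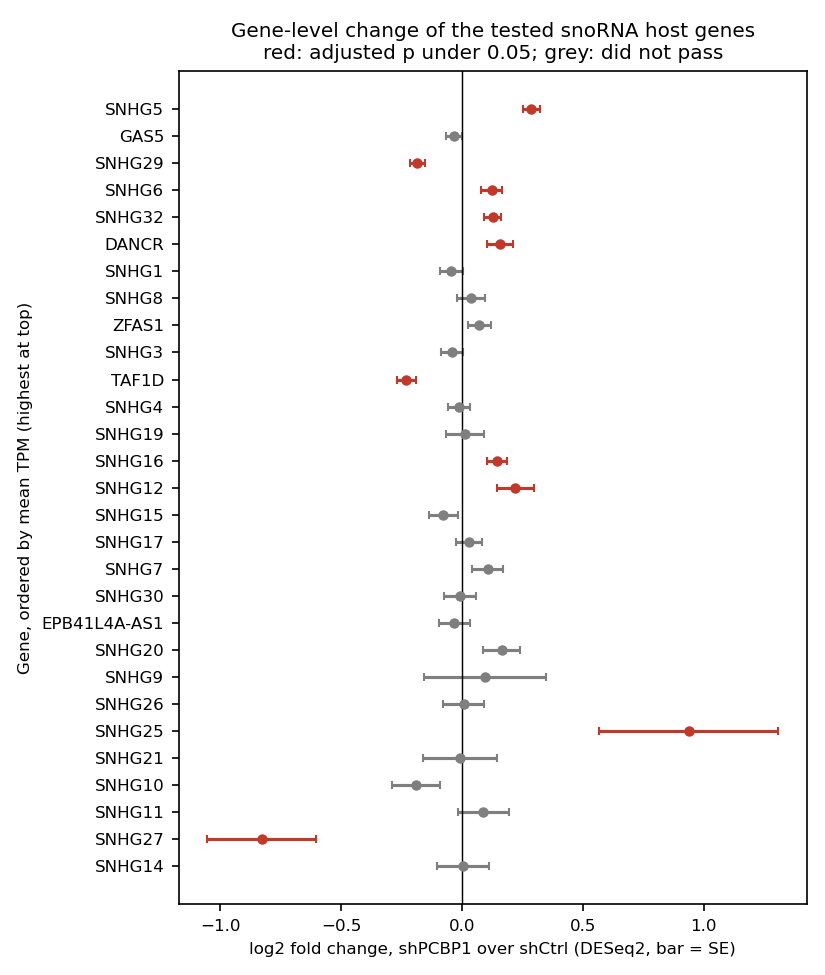
Log2 fold change (shPCBP1 over shCtrl, horizontal axis) of the 29 tested members from DESeq2, with its standard error as a bar, ordered by mean TPM with the highest at the top. Red points have an adjusted p under 0.05. 27 of the 29 lie within 0.3 of 0, and the 2 outside, SNHG25 and SNHG27, are low-count genes with wide bars.

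Among the box C/D hosts, 4 of 11 tested rose and 1 fell. SNHG5, which carries SNORD50A and SNORD50B, showed 28084, 27721 and 28609 normalized counts in shCtrl and 35271, 34801 and 32969 in shPCBP1. All 3 shPCBP1 values lay above all 3 shCtrl values. Its log2 fold change was 0.29 ± 0.04 (SE, DESeq2 adjusted p = 5.82e-14), the lowest p of any member. Part of its span shares a strand with an unnamed gene, so some reads could belong to either.

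SNHG29, which carries SNORD49A, SNORD49B and SNORD65, moved the other way. It had 34281, 33644 and 34515 normalized counts in shCtrl and 30481, 30146 and 29495 in shPCBP1, with no overlap. The log2 fold change was −0.18 ± 0.03 (SE, DESeq2 adjusted p = 1.23e-07). The 2 box C/D hosts with the most counts thus moved in opposite directions in the same libraries.

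SNHG32, the host of SNORD48 and SNORD52, had 15922, 15417 and 15946 normalized counts in shCtrl and 17111, 17429 and 17113 in shPCBP1. The groups did not overlap, and the log2 fold change was 0.13 ± 0.04 (SE, DESeq2 adjusted p = 0.00179). SNHG16, the host of the SNORD1 family, had 16617, 17437 and 17554 normalized counts in shCtrl and 19851, 19107 and 18156 in shPCBP1. These groups did not overlap either, the lowest shPCBP1 value standing just above the highest shCtrl value (log2 fold change 0.15 ± 0.04, SE, DESeq2 adjusted p = 0.00263). With transcript length offsets SNHG16 no longer passed.

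SNHG6, the host of SNORD87, had 8319, 7931 and 8460 normalized counts in shCtrl and 9016, 9074 and 8817 in shPCBP1. The groups did not overlap, and the log2 fold change was 0.12 ± 0.04 (SE, DESeq2 adjusted p = 0.0179). On the TPM scale the difference was wider, 396 ± 12.8 in shCtrl and 462 ± 7.49 TPM in shPCBP1 (SD, n = 3).

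**Figure D2:**
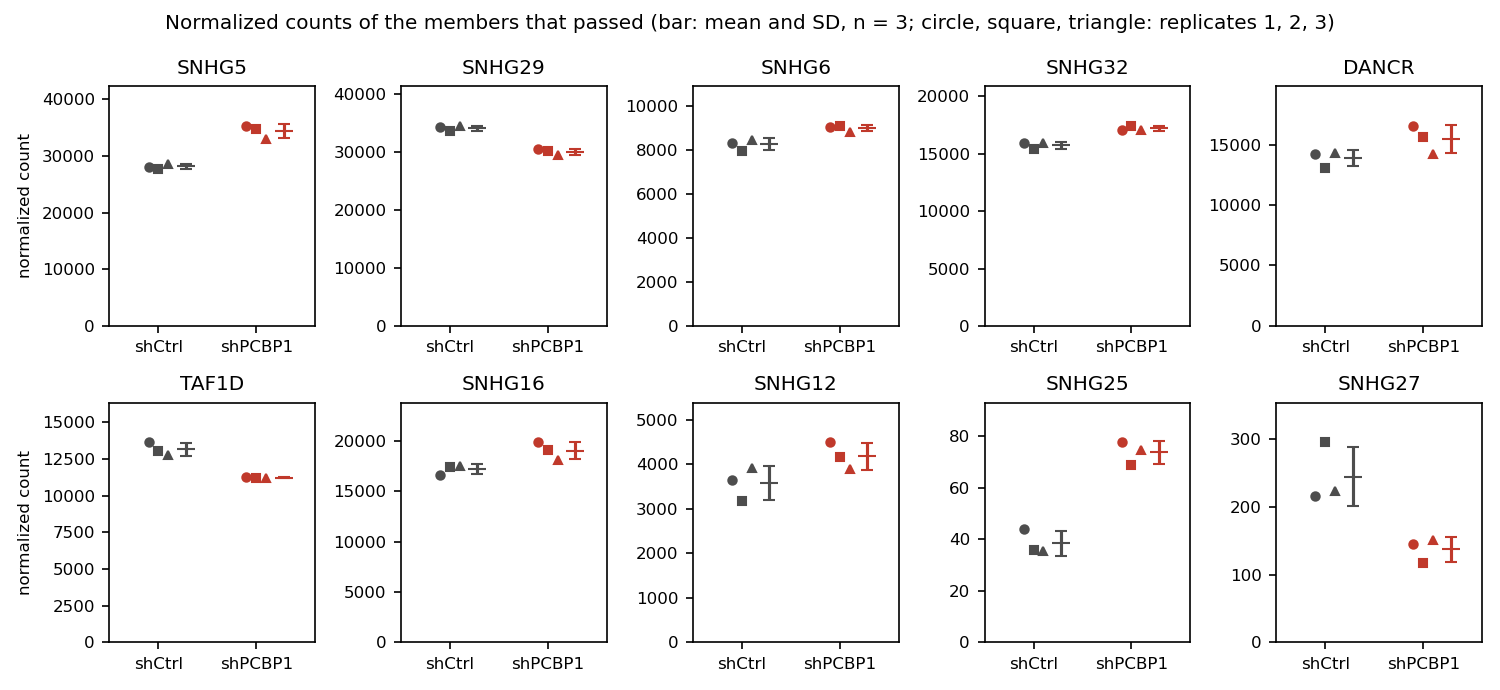
Normalized counts (vertical axis from 0) of the 10 members that passed, in each of the 3 shCtrl and 3 shPCBP1 libraries, with the mean and SD beside the points. The groups are separate in 8 panels and overlap for DANCR and SNHG12.

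SNHG1 and ZFAS1, which are abundant box C/D hosts, did not pass. SNHG1 had 24418, 22353 and 25250 normalized counts in shCtrl and 24491, 23079 and 22265 in shPCBP1, with the groups overlapping. Its log2 fold change was −0.04, with a 95% interval from −0.14 to 0.05. ZFAS1 had 6697, 6477 and 6969 in shCtrl and 7145, 7160 and 6867 in shPCBP1, again overlapping (log2 fold change 0.07, 95% interval −0.02 to 0.16). SNHG14, the host of the SNORD116 cluster in the imprinted region of chromosome 15, was low at 2.68 TPM and had an interval from −0.21 to 0.22.

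Among the box H/ACA hosts, 1 of 11 tested rose and 1 fell. DANCR, which carries SNORA26 and is known as a lncRNA that restrains differentiation, had 14180, 13094 and 14343 normalized counts in shCtrl and 16537, 15638 and 14230 in shPCBP1. The third shPCBP1 library fell inside the shCtrl range, so the groups overlapped (log2 fold change 0.16 ± 0.05, SE, DESeq2 adjusted p = 0.0131). With transcript length offsets the value was 0.05, and in TPM the group means were 245 ± 12.4 and 250 ± 15.1 (SD, n = 3).

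SNHG27 fell the most of the members with an adjusted p. It had 215, 295 and 223 normalized counts in shCtrl and 145, 116 and 151 in shPCBP1, with every shPCBP1 value below every shCtrl value. The log2 fold change was −0.83 ± 0.23 (SE, DESeq2 adjusted p = 0.00150), at a level of 4.21 TPM.

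SNHG8, SNHG3 and SNHG4 were the most abundant box H/ACA hosts that did not pass. SNHG8 had 3957, 3663 and 3738 normalized counts in shCtrl and 3897, 4037 and 3713 in shPCBP1. SNHG3 had 22049, 21685 and 19591 in shCtrl and 20689, 20402 and 20451 in shPCBP1. The groups overlapped in each case, and the 95% intervals of the log2 fold changes ran from −0.08 to 0.15 for SNHG8 and from −0.13 to 0.05 for SNHG3. SNHG4 had 14769, 13232 and 14546 in shCtrl and 13696, 14194 and 14282 in shPCBP1, and its log2 fold change of −0.01 had an interval from −0.10 to 0.08. SNHG3 shares its strand with RCC1 and SNHG4 with MATR3, so the split of reads between these genes is uncertain. In the same fit RCC1 rose by a log2 fold change of 0.39 ± 0.05 (SE). The MATR3 entry that spans snoRNA genes rose by 0.82 ± 0.05 (SE). How the split of reads bears on the SNHG3 and SNHG4 values was not tested. DANCR, SNHG14, SNHG16, SNHG20, SNHG21, SNHG28 and SNHG32 also overlap another gene on the same strand. GAS5, SNHG6, SNHG12, SNHG29, ZFAS1 and TAF1D are among the members with a gene on the other strand. Whether the counting used strand is not given in the sources used here.

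Of the 4 hosts of both kinds, SNHG12 and SNHG25 rose, TAF1D fell and GAS5 did not pass. TAF1D encodes a subunit of the selectivity factor that recruits RNA polymerase I to ribosomal RNA genes. It had 13622, 13064 and 12758 normalized counts in shCtrl and 11243, 11193 and 11177 in shPCBP1. The shPCBP1 libraries lay within a narrow range below all shCtrl libraries (log2 fold change −0.23 ± 0.04, SE, DESeq2 adjusted p = 1.09e-07).

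GAS5, the host best known as a growth-arrest RNA and an NMD substrate, had 28361, 28264 and 27505 normalized counts in shCtrl and 27563, 27631 and 27097 in shPCBP1. The groups overlapped narrowly. The log2 fold change was −0.03 (95% interval −0.09 to 0.03).

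SNHG12 had 3651, 3171 and 3906 normalized counts in shCtrl and 4485, 4149 and 3882 in shPCBP1. The groups overlapped at one shPCBP1 library (log2 fold change 0.22 ± 0.08, SE, DESeq2 adjusted p = 0.0143). SNHG25, a short 2-exon host of 311 bases, had 43.96, 35.86 and 35.45 normalized counts in shCtrl and 77.6, 68.8 and 74.7 in shPCBP1. The groups did not overlap, and the log2 fold change was 0.94 ± 0.37 (SE, DESeq2 adjusted p = 0.0391). Of its 3 GENCODE snoRNA genes only 1 lies inside the intron of this transcript.

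Members with no named snoRNA gave no call in 3 tested genes. The closest was SNHG20, whose groups overlapped (log2 fold change 0.16 ± 0.08, SE, DESeq2 adjusted p = 0.0898). It was the only further member with an unadjusted p under 0.05, which 11 members had in all. SNHG22, SNHG28 and SNHG31 received no adjusted p because of low counts, and SNHG18 did not reach the summed count of 10.

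The calls differed in how firmly they held. SNHG5, SNHG29, SNHG32, TAF1D and SNHG27 passed under each of the 14 alternative settings of the gene-level test that were run. DANCR and SNHG6 each lost the call in 5 settings, SNHG12 in 6 and SNHG25 in 7. In another 3 settings SNHG25 received no adjusted p, so it passed in 4 of 14. The number of rises was 3 without shCtrl replicate 2, 3 without shPCBP1 replicate 1 and 3 without shPCBP1 replicate 2, and edgeR gave 3 rises and 3 falls where 15.9% of all genes passed in it.

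The first transcript-level question was whether intron-retaining models of the host genes gained or lost share. No retained-intron share of a host gene passed the test, which says little about the size of any shift, since the intervals given below are wide. Models of the type retained_intron, 85 of the 926 member transcripts, occur in 15 members. Their share of TPM, against spliced models with at least 2 exons, covered a wide range between genes, from 66.6% in SNHG3 and 67.3% in SNHG12 through 46.5% in TAF1D and 19.4% in GAS5 to 0.0956% in SNHG29 (means of shCtrl). In a limma fit of the log2 ratio of retained-intron to spliced TPM, 0 of 15 members passed, against 0.0591% of 8461 genes (5 genes). At an unadjusted p under 0.05 there was 1 member, SNHG6, against 12.7% of all genes.

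**Figure D3:**
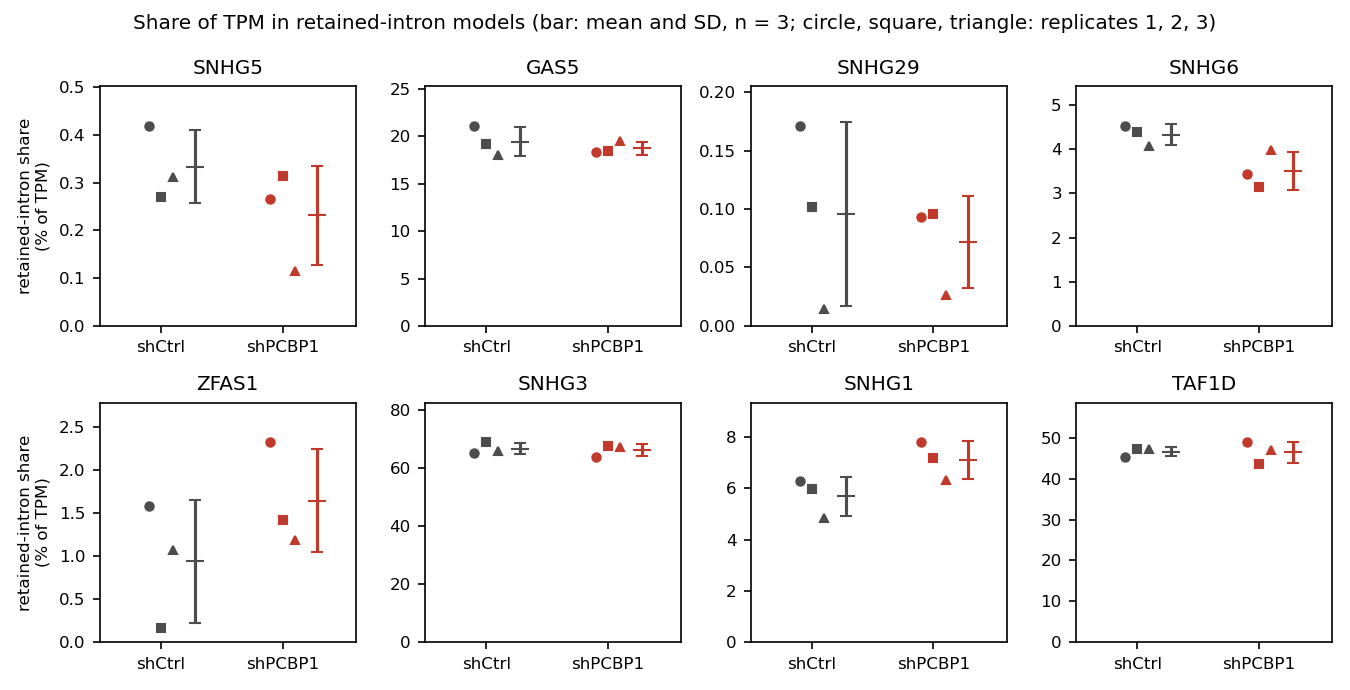
Share of a gene's TPM in retained-intron models (percent, vertical axis from 0, scaled for each gene) in the 3 shCtrl and 3 shPCBP1 libraries, for the 8 most abundant members with such models; bars are the mean and SD. The groups are separate for SNHG6 and SNHG1 and overlap for the other 6. How often this share separates the groups over all genes was not counted, so no excess can be read from it.

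SNHG6 had 4.53%, 4.38% and 4.06% of its TPM in the retained-intron model in shCtrl and 3.43%, 3.14% and 3.97% in shPCBP1. The groups did not overlap, but the log2 ratio difference of −0.32 (95% interval −0.62 to −0.01) had a limma adjusted p of 0.374. SNHG1 had 6.30%, 5.96% and 4.84% in shCtrl and 7.79%, 7.19% and 6.33% in shPCBP1. Here the groups were separated in the other direction, by less than the spread within either, at a log2 ratio difference of 0.34 (95% interval −0.04 to 0.72; limma adjusted p = 0.444).

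GAS5, with 10 of its 11 RefSeq snoRNAs inside introns of the leading transcript, had 21.1%, 19.2% and 18.1% in shCtrl and 18.3%, 18.4% and 19.5% in shPCBP1. The interval of its log2 ratio difference, −0.32 to 0.20, spans 0. SNHG3 had 65.2%, 68.7% and 65.9% in shCtrl and 63.8%, 67.4% and 67.1% in shPCBP1 (interval −0.34 to 0.28). TAF1D had 45.2%, 47.1% and 47.2% in shCtrl and 48.8%, 43.6% and 46.8% in shPCBP1 (interval −0.32 to 0.31). In these 3 genes, where retained-intron models hold a large part of the signal, the groups overlapped.

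In SNHG5, SNHG29 and ZFAS1 these models were a minor part of the gene. SNHG5 held 0.116% to 0.419% over the 6 libraries and SNHG29 held 0.0142% to 0.171%. ZFAS1 ranged from 0.171% to 2.32%, and its log2 ratio difference had an interval from −0.66 to 2.97. For SNHG5 the interval was −1.52 to 0.30 and for SNHG29 −1.79 to 1.65, so in each of the 3 genes a change in ratio of over 2-fold lies within the interval.

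Defining intron retention by structure, as an exon that spans an intron of another transcript of the gene, raised the number of members in the fit to 25. This definition also takes in leading multi-exon forms, such as DANCR-201 with 3 exons. In shCtrl it counted 99.8% of DANCR and 96.8% of SNHG1 as retained, against 5.70% of SNHG1 by type. A shift in such a share can therefore be a shift between multi-exon forms. None passed (background 0.255% of 7830 genes), and 8 had an unadjusted p under 0.05, 6 higher and 2 lower, where 14.5% of all genes did. SNHG20 had the wider of the 2 falls in share, from 51.8% ± 2.21 to 39.9% ± 2.70 (SD, n = 3), and SNHG6 went from 7.88% ± 0.653 to 5.83% ± 0.474. On the higher side, SNHG19 went from 8.73% ± 0.570 to 11.5% ± 0.934, SNHG29 from 9.69% ± 0.568 to 11.2% ± 0.648, ZFAS1 from 4.09% ± 0.263 to 5.57% ± 0.948 and SNHG7 from 89.5% ± 2.39 to 93.3% ± 1.11. EPB41L4A-AS1 went from 74.4% ± 10.4 to 90.2% ± 7.22 with overlapping groups, and SNHG9 from 33.2% ± 4.35 to 43.2% ± 2.47. The lowest limma adjusted p among the 25 was 0.178, so these are values and not calls.

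TAF1D is the member with transcripts that GENCODE itself types as NMD substrates. Its 7 NMD-type transcripts held 35.3% ± 1.25 of the gene's TPM in shCtrl and 35.7% ± 1.91 in shPCBP1 (SD, n = 3). The 9 retained-intron transcripts held 46.5% ± 1.14 and 46.4% ± 2.61, and the 3 protein-coding transcripts 14.0% ± 0.436 and 14.6% ± 2.09. The groups overlapped in all 3 classes, while the gene as a whole fell.

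At the level of single transcripts, the leading form moved with its gene in SNHG5, SNHG25 and SNHG29. In SNHG32 and SNHG6 a transcript other than the leading one rose, and in SNHG20 a transcript rose while the gene did not pass. Of 458 member transcripts from 31 genes in the limma fit on log2(TPM + 0.1), 10 passed (2.18%), 7 higher and 3 lower, against 1.54% of 90756 transcripts (0.701% higher and 0.844% lower). They belong to 9 genes, and 0 of the 64 retained_intron transcripts in the fit was among them. With the replicate number as a block none of the 10 passed, and the number of rises ranged from 1 to 5 when 1 library was left out. There was 1 rise without shCtrl replicate 2, 3 without shCtrl replicate 3 and 2 without any of the 3 shPCBP1 libraries in turn. There was 1 fall without shCtrl replicate 3 or shPCBP1 replicate 1. Of 10 alternative settings, SNHG29-243 lost its call in 1, SNHG5-277 in 2, SNHG32-203 and SNHG25-202 in 6 each and SNHG5-283 in 7. SNHG6-205, SNHG20-207, DANCR-214 and SNHG17-222 lost it in 8 each, and SNHG15-212 in all 10. Differences below are on the log2(TPM + 0.1) scale, which understates changes of low transcripts.

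The leading SNHG5 transcript, SNHG5-277 (6 exons, 518 bases), had 836, 871 and 870 TPM in shCtrl and 1027, 1025 and 1007 TPM in shPCBP1. The groups did not overlap (log2 difference 0.25 ± 0.02, SE, limma adjusted p = 0.00893). The second, SNHG5-283, had 161, 160 and 171 TPM in shCtrl and 198, 202 and 194 TPM in shPCBP1, with a log2 difference of 0.27 ± 0.04 (SE, limma adjusted p = 0.0263). Both rose, and SNHG5-277 held 77.6% of the gene's TPM in shCtrl and 76.8% in shPCBP1.

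The leading SNHG29 transcript, SNHG29-243 (5 exons, 924 bases), had 436, 442 and 440 TPM in shCtrl and 344, 358 and 358 TPM in shPCBP1. It fell with no overlap (log2 difference −0.32 ± 0.02, SE, limma adjusted p = 0.00568), and its share of the gene went from 74.1% to 69.4%. The second transcript, SNHG29-209, averaged 30.0 ± 1.76 and 31.3 ± 6.12 TPM (SD, n = 3) and did not pass. SNHG25 has a single transcript above the count minimum, SNHG25-202, which rose from 9.01, 7.85 and 7.73 to 15.6, 13.8 and 15.6 TPM (limma adjusted p = 0.0173).

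**Figure D4:**
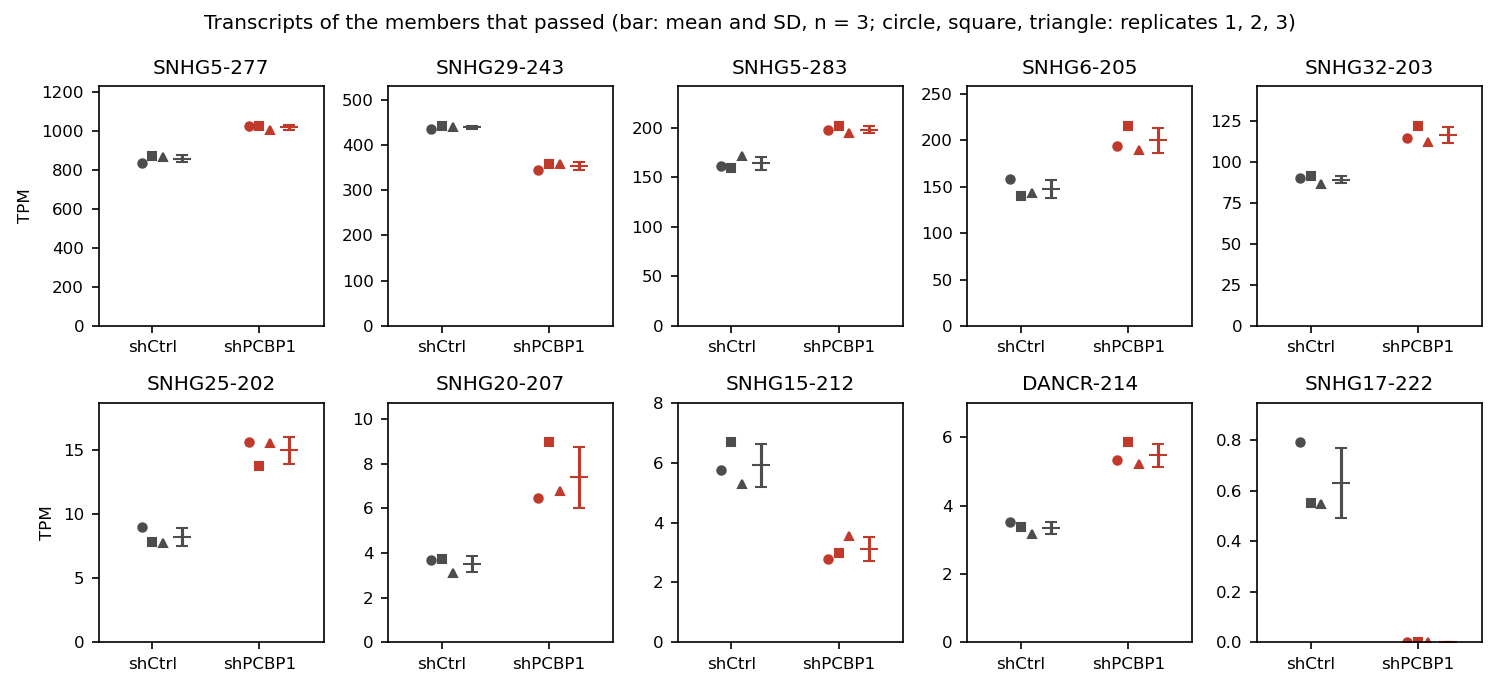
TPM (vertical axis from 0, scaled for each transcript) of the 10 member transcripts that passed, in the 3 shCtrl and 3 shPCBP1 libraries, with mean and SD. The groups are separate in each of the 10 panels, and SNHG17-222 is listed at 0 in all 3 shPCBP1 libraries. The transcripts were chosen by a test on these same values, so the separation is no further evidence. How often groups separate over all transcripts was not counted.

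In SNHG32 and SNHG6 the transcript that ranked second by mean TPM over the 6 libraries passed and the first did not. SNHG32-203, with 5 exons, had 90.1, 91.2 and 86.7 TPM in shCtrl and 115, 122 and 112 TPM in shPCBP1 (log2 difference 0.38 ± 0.04, SE, limma adjusted p = 0.0173). The transcript ranked first, SNHG32-204, averaged 117 ± 3.69 and 112 ± 1.17 TPM (SD, n = 3), so it led in shCtrl and was close to SNHG32-203 in shPCBP1. SNHG6-205, with 3 exons, had 158, 140 and 143 TPM in shCtrl and 194, 216 and 190 TPM in shPCBP1 (log2 difference 0.44 ± 0.07, SE, limma adjusted p = 0.0385). The leading transcript, SNHG6-203, averaged 199 ± 9.62 and 213 ± 2.21 TPM (SD, n = 3) and did not pass.

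In each of these genes the transcript that passed was compared with the leading one. This gave 1 exon that is present in only 1 of them and lies inside an intron of the other. Other splice sites were not compared, and the ends of the transcripts may differ too. In SNHG32 it is the 94-base exon at chr6:31836424-31836517 (GRCh38), which SNHG32-203 alone includes and 6 transcripts skip. Transcripts with the exon held 32.7%, 34.0% and 32.0% of the TPM of both forms in shCtrl and 40.2%, 40.7% and 37.6% in shPCBP1, a difference of 6.64 percentage points with no overlap. In SNHG6 it is the 112-base exon at chr8:66922614-66922725 (GRCh38), which 5 transcripts include and 2 skip. The exon was present in 58.4%, 61.3% and 62.5% of the TPM in shCtrl and 54.8%, 52.4% and 55.9% in shPCBP1, a difference of −6.36 points, again with no overlap. The exons went in opposite directions, more included in SNHG32 and more skipped in SNHG6. They were picked after the transcript test, so these shares are a description with no test of their own.

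**Figure D5:**
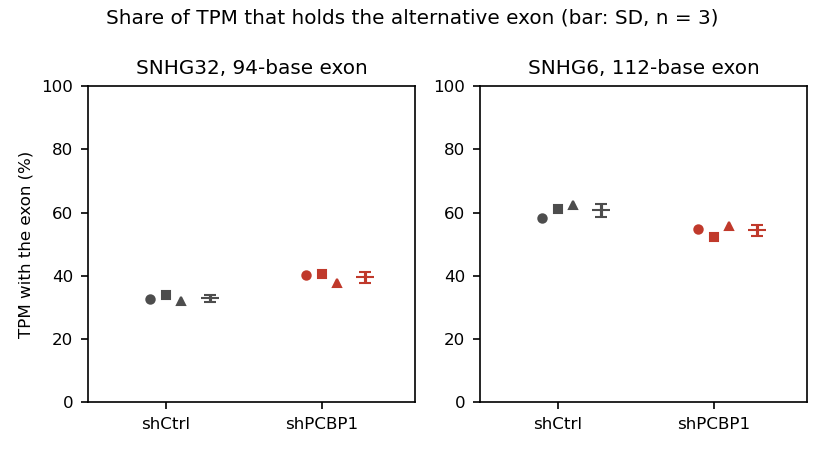
Percent of the TPM of both forms (vertical axis, 0 to 100) that holds the 94-base exon of SNHG32 and the 112-base exon of SNHG6 in the 3 shCtrl and 3 shPCBP1 libraries; bars are the mean and SD. The share went from 32.9% to 39.5% in SNHG32 and from 60.7% to 54.4% in SNHG6.

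The intron that ends at the SNHG32 exon is shown because the bases before an exon are where C-rich tracts can be bound. Its last 30 bases, with the closing AG of the intron at the end, read as follows on hg38, and a run of 3 or more C does not occur, so nothing is in capitals.
SNHG32, chr6:31836394-31836423, plus strand: acgcctggctaatttttagtttttttacag

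C made up 16.7% of these bases. Over the 164 intron ends of member transcripts with a mean of at least 1 TPM, the last 50 bases averaged 19.2% C (SD 8.23 over intron ends), against 23.8% (SD 11.6) over 120537 intron ends of all genes. The letters CCCC occurred in 9.15% of the member intron ends and in 22.8% of all. Intron ends of a gene share its base composition and are not independent, so these are descriptions.

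The remaining transcripts that passed averaged under 10 TPM. SNHG20-207 rose from 3.69, 3.72 and 3.10 TPM to 6.45, 8.94 and 6.76 TPM (log2 difference 1.05 ± 0.16, SE, limma adjusted p = 0.0432), and its share of the gene went from 16.9% to 30.9%, while SNHG20-202 averaged 4.94 ± 0.495 and 5.36 ± 1.62 TPM (SD, n = 3) and was above it in each shCtrl library. DANCR-214 rose from 3.52, 3.36 and 3.18 to 5.34, 5.84 and 5.22 TPM (log2 difference 0.69 ± 0.11, SE, limma adjusted p = 0.0470) and held 1.37% of the gene in shCtrl and 2.19% in shPCBP1. The leading DANCR forms, DANCR-201 and DANCR-213, averaged 137 ± 10.4 and 85.9 ± 5.97 TPM in shCtrl and 146 ± 11.3 and 77.1 ± 7.87 TPM in shPCBP1 (SD, n = 3), and neither passed.

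SNHG15-212 fell from 5.75, 6.67 and 5.29 TPM to 2.80, 2.98 and 3.56 TPM (log2 difference −0.90 ± 0.15, SE, limma adjusted p = 0.0497), a call that each of its 10 alternatives lost. The leading SNHG15 forms, SNHG15-203 and SNHG15-210, averaged 27.0 ± 0.690 and 6.18 ± 0.908 TPM in shCtrl and 24.6 ± 1.76 and 7.57 ± 2.15 TPM in shPCBP1 (SD, n = 3). SNHG17-222 was listed at 0.791, 0.554 and 0.547 TPM in shCtrl and at 0 in all shPCBP1 libraries (limma adjusted p = 0.0184). A 0 in such a table can be a failed split between 118 SNHG17 transcripts, and no fold is given. SNHG17-217 and SNHG17-241, the most abundant forms, averaged 3.45 ± 1.88 and 3.94 ± 0.199 TPM in shCtrl and 4.50 ± 1.56 and 3.01 ± 0.278 TPM in shPCBP1 (SD, n = 3).

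The machinery around the host genes was read from 4 lists in the same DESeq2 fit. Of 20 NMD factors, 12 rose and 1, UPF3A, fell, with a median log2 fold change of 0.16. That is 65% called, against 31.2% of all genes (17.7% higher and 13.5% lower) and 44.9% of genes averaging 1000 normalized counts or more, as all 20 do. With transcript length offsets 8 rose and 0 fell, and the share of all genes called in that setting was not counted. The 4 with the most counts among those that passed were ETF1, the translation release factor (0.16 ± 0.04), RNPS1 of the exon junction complex (0.33 ± 0.04), the kinase SMG1 (0.19 ± 0.03) and the helicase UPF1 (0.24 ± 0.04, SE for each). Of 17 mRNAs known to be regulated by NMD, 7 rose and 3 (SAT1, DDIT3 and UPP1) fell (58.8% called), with a median of 0.10. The splicing factors SRSF3 (0.11 ± 0.05), SRSF2 (0.16 ± 0.05) and TRA2B (0.18 ± 0.05) and the RNA-binding protein HNRNPDL (0.17 ± 0.05, SE for each) were the most abundant that passed. UPF3A, SAT1, DDIT3 and UPP1 are named after their values were seen.

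Of 20 genes of snoRNA-protein particles and their assembly, 8 rose and 0 fell, with a median of 0.11, and the 40% called lies between the 31.2% of all genes and the 44.9% of genes with 1000 counts or more. NOP56, a core protein of box C/D particles, rose by a log2 fold change of 0.33 ± 0.05 (SE), and NOLC1 (0.21 ± 0.04), TCOF1 (0.22 ± 0.04) and RUVBL2 (0.13 ± 0.04, SE for each) also rose. The last list holds protein-coding genes with a snoRNA gene on the same strand in their span, whether or not it lies in an intron. It is not fully separate from the members, since it includes RCC1 and MATR3, which overlap SNHG3 and SNHG4. It also counts some loci more than once, such as PPAN and the readthrough gene PPAN-P2RY11. Of 198 tested, 54 rose and 23 fell, with a median of 0.04, and their 38.9% called lies between the same values. Ribosomal proteins among the most abundant that passed went both ways, RPS2 at 0.08 ± 0.03, RPL10 at −0.08 ± 0.03 and RPS3A at −0.09 ± 0.03, and the nucleolar protein NCL rose by 0.23 ± 0.05 (SE for each). Without shCtrl replicate 2 or shPCBP1 replicate 1, 5 of the particle genes rose and 1 of the NMD-regulated mRNAs fell, and without shCtrl replicate 1 or shPCBP1 replicate 2, 0 NMD factors fell. Set beside these lists, the 29 members had a median of 0.01, with 17 positive and 12 negative values.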

How the data were processed

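Poly-A RNA of K562 cells was measured in 6 libraries, 3 shCtrl and 3 shPCBP1, with groups taken from their labels. The authors ran Salmon 1.10.2, which assigns reads to transcripts. The deposited values were estimated counts, unscaled and fractional, and TPM, which the authors' tool corrects for effective length. The annotation release behind the index is not given in the sources used here. Of 252045 transcripts, 251612 were matched by identifier to GENCODE release 44, and the unmatched ones held 0.136% to 0.147% of the counts.

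Estimated counts were summed per gene, rounded and tested with DESeq2 1.42.0 (Wald test, two-sided, minimum summed count 10, Benjamini-Hochberg adjustment over all genes, threshold 0.05). Retained-intron ratios and transcripts were tested with limma 3.58.1 (trend, two-sided, pseudocount 0.1 TPM, mean count of at least 10, adjusted over all features). edgeR 4.0.16 and R 4.3.3 served the alternatives, which comprised other normalizations, filters, pseudocounts, retention definitions, the replicate block and leaving out each library. Scripts were tested on simulated data with 200 changed features each. The gene-level test recovered 143 at a 1.2-fold change, with 29 false calls among unchanged genes. At a 1.5-fold change it recovered 199, with 30 false calls. Gene-level changes below 1.2-fold were not simulated. The retained-intron test recovered 0 at a 2-fold change (0 false) and 143 at a 4-fold change (10 false). The transcript test recovered 19 at a 1.5-fold change (1 false) and 114 at a 2-fold change (7 false). Genes without an adjusted p in DESeq2 were left without one.

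A marker gene that was checked is not reported here. Named were the members that passed and the 12 highest in TPM, the 8 highest with retained-intron models, the transcripts that passed with the leading pair of their genes, and up to 4 passing genes of each list by count. Further names were chosen after their values were seen. The members and lists were chosen with earlier results of these data known. Deviations from the group means correlated at 0.0387, 0.016 and −0.0331 between libraries of equal number. No pairing by number was visible, but such correlations cannot show whether these libraries were prepared together.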

Additional observations from a re-analysis of the deposited data

How the results depend on the processing

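Intervals were widest for low-count members and for retained-intron ratios, so a share or minor transcript that did not pass may still differ. Against 7 rises and 3 falls at the gene level, edgeR gave 3 rises, transcript length offsets 4, and the study's thresholds 0 rises and 0 falls. Leaving out 1 library gave 3 to 7 rises and 3 to 4 falls. The replicate number as a block gave 5 rises and 3 falls at the gene level. With it there were 15 falls in place of 23 among snoRNA-hosting protein-coding genes, and 0 rises and 0 falls among transcripts. Whether same-numbered libraries were prepared together is not given in the sources used here. Length offsets gave 37 rises and 15 falls among the protein-coding hosts. Among NMD factors they gave 8 rises in place of 12, and 0 falls. Leaving out 1 library gave 0 to 1 falls among NMD factors, 1 to 3 among NMD-regulated mRNAs and 5 to 11 rises among snoRNP genes. Without a count minimum 3 transcripts rose and 1 fell, and with 1 library left out 1 to 5 rose and 1 to 2 fell. The causes were not tested.

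Some values changed sign, and none of these passed. GAS5 stood at 0.0017 without retained-intron transcripts. SNHG4 was 0.070 with length offsets and −0.060 to 0.017 with 1 library left out. Retained-intron log2 ratios turned for GAS5 (−0.13 to 0.013 with 1 library left out), SNHG29 (0.056 with a pseudocount of 1 TPM, 0.24 by structure, −0.83 to 0.48 with 1 library left out), SNHG3 (0.092 from counts, −0.077 to 0.043 with 1 library left out), SNHG1 (−0.13 by structure) and TAF1D (0.065 by structure, −0.075 to 0.075 with 1 library left out). By structure most of the SNHG1 TPM counted as retained, so its signs by type and by structure compare unlike groups of transcripts. SNHG3 passed without shCtrl replicate 3 at a log2 fold change of −0.09.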
